A study of Mus musculus with 4 samples.

Results

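The 3p arms of the miR-290-295 cluster are the mature miRNAs cut from the 3′ side of 7 neighbouring mouse hairpins: mmu-miR-290-3p, mmu-miR-291a-3p, mmu-miR-292-3p, mmu-miR-291b-3p, mmu-miR-293, mmu-miR-294 and mmu-miR-295 (written below without the species prefix). They were taken by name and make up 7 of the 577 miRNA names on the array, 567 of them from mouse and 10 from a mouse herpesvirus. The samples were A3-1 cells, a mouse embryonic stem cell line grown in medium with serum and the self-renewal cytokine LIF. The siLin28a group (n = 2) had received an siRNA against Lin28a for 48 h, and the siGFP group (n = 2) an siRNA against GFP, a sequence foreign to the mouse. All 4 samples thus come from 1 line and all had an siRNA. Total RNA (100 ng) was labelled with Cy3, and every sample had a one-colour Agilent miRNA array of its own.

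A miRNA hairpin is cut from its primary transcript by Drosha and trimmed by Dicer, and the arm that is loaded into an Argonaute protein recognises target mRNAs mainly through its seed, bases 2 to 8. The miR-290-295 cluster is transcribed as a unit and is known as the main source of miRNAs in mouse embryonic stem cells, where members with the AAGUGC core repress inhibitors of S phase entry such as Cdkn1a, Rbl2 and Lats2. Most of the cluster's 3p arms carry that core. LIN28A is an RNA-binding protein that holds back the let-7 family by binding the loops of its precursors, with GGAG as a known contact motif, and mature let-7 opposes the embryonic programme that the cluster sustains. The comparison of siLin28a with siGFP asks how the loss of LIN28A bears on mature miRNAs.

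Mature sequences of 6 of the 7 members matched RefSeq annotation of build GRCm38.p6, where all lie on the plus strand of chromosome 7. The first 3 are shown because they have an identical seed, which the last 3 vary. Sequences are written 5′ to 3′ with the seed in capitals.
miR-291a-3p: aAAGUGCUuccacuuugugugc
miR-294: aAAGUGCUucccuuuugugugu
miR-295: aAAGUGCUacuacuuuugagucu
miR-290-3p: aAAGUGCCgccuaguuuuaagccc
miR-291b-3p: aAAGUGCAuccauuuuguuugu
miR-293: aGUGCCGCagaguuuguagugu
The 6 sequences hold 4 seeds. miR-291a-3p, miR-294 and miR-295 share AAGUGCU, while the seed is AAGUGCC in miR-290-3p, AAGUGCA in miR-291b-3p and GUGCCGC in miR-293. The miR-293 seed also stands in miR-290-3p, where it overlaps the seed of that miRNA. miR-291a-3p and miR-294 were identical at 19 of 22 bases, the substitutions being A12C, C13U and C22U with positions counted from the 5′ end. miR-291b-3p and miR-294 were also identical at 19 of 22 bases and differed within the seed (A8U, A12C and U19G). The AAGUGCU seed was found in 5 of the 1738 mature mouse miRNAs listed there. That set does not include miR-292-3p, so further miRNAs with this seed may be missing from it. The other 2 of the 5 found are miR-302b and miR-302d, from a separate cluster on chromosome 3 that marks later pluripotent states.
miR-302b: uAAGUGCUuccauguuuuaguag
miR-302d: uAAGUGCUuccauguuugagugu

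The 7 hairpins span 2216 bases at chr7:3218626-3220841 (GRCm38.p6). The printed mature sequences lie at chr7:3218674-3218697 (miR-290-3p), chr7:3218968-3218989 (miR-291a-3p), chr7:3219529-3219550 (miR-291b-3p), chr7:3220390-3220411 (miR-293), chr7:3220691-3220712 (miR-294) and chr7:3220815-3220837 (miR-295). In RefSeq, 6 of the 7 hairpins lie within the long non-coding RNA gene D7Ertd143e and within the span of the protein-coding gene Nlrp12, while the hairpin of miR-290-3p starts before both. The table gives no exons, so whether a hairpin is exonic or intronic in Nlrp12 is not stated here.

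Full hairpins are shown for miR-294, miR-291b-3p and miR-295, because they hold 2, 1 and 0 copies of GGAG, and the 3p arm is in capitals.
Mir294: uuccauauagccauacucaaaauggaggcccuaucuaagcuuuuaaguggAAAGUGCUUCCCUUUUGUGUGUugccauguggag
Mir291b: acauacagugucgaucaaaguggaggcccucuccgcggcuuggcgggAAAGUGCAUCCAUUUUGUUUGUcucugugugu
Mir295: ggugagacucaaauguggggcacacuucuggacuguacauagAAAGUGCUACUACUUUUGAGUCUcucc
GGAG was searched on the RNA strand of 5 hairpins, and Mir291a and Mir292 were not analysed here. It starts at bases 24 and 81 of Mir294 and at base 22 of Mir291b, and was not found in Mir290a, Mir293 or Mir295. None of these copies lies in the loop between the mature arms. For comparison, 44.5% of all 1005 mouse hairpins in the annotation hold GGAG, as do 8.07% of the 644 loops that could be delimited by both arms. These matches are descriptions of the sequence, not binding sites.

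Every member was detected on 4 of 4 arrays, and all 7 were among the 231 miRNAs bright enough to be tested. Between 32.5% and 38.8% of the spots of an array were well above background and 0 were saturated. Precision is limited by the number of arrays. The labels do not say whether replicates were separate cultures, so a p-value here reflects a spread between samples that may be technical only. A miRNA array does not measure Lin28a mRNA. As a readout of the siRNA, let-7a and let-7f were used, growth-repressing miRNAs that LIN28A restrains. They were at least 2.31-fold and 2.39-fold higher with siLin28a. Only bounds can be given, because neither was well above background on a siGFP array. These bounds set siGFP at a mean log2 level of -3.49, from the lowest signals well above background on each array. Against the common floor of -3.40 used in the fit, the folds were 2.17 and 2.25 (limma adjusted p = 0.0210 for each). Both siGFP values are that floor and hold no spread, and these miRNAs passed the filter only through siLin28a. The p-values therefore do not measure a spread within siGFP and give the call no support. That call was lost without siGFP replicate 1, without siGFP replicate 2 and with the 75th percentile taken over all probes, when 0 miRNAs were called higher. let-7a and let-7f were the only 2 of the 231 tested miRNAs that were called. They were listed with earlier results of these data known, so they are not an independent check of the siRNA. Other let-7 miRNAs are not reported here. Of the miRNAs that mark other cell types, those of muscle (3) and endoderm (2) were detected on no array. The fibroblast or feeder list had 3 tested of 4 on the array and a summed total signal of 414 and 373 with siLin28a against 371 and 303 with siGFP. The neural list had 2 tested of 3, with sums of 206 and 284 with siLin28a against 184 and 221 with siGFP, and the blood list 2 of 4, with 142 and 104 against 110 and 89.8. Of these lists 0 miRNAs were called. An unadjusted limma p below 0.05 was found for 2 of the 3 tested fibroblast or feeder miRNAs, miR-31 (lower) and miR-143 (higher, siGFP at the floor). It was found for 0 of the neural and 0 of the blood list, beside 24.7% of all tested miRNAs. The part of these lists in the results below was not tested.

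No 3p arm of the cluster passed the test for a difference between siLin28a and siGFP. Of the 7 members, 0 had an adjusted p below 0.05 (limma with Benjamini-Hochberg adjustment, two-sided), where 0.866% of the 231 tested miRNAs did, and 0 had an unadjusted p below 0.05, where 24.7% of the tested miRNAs did. The fitted differences ran from a log2 value of -0.25 for miR-291b-3p to 0.06 for miR-292-3p. The median over the members was -0.07, beside 0 over all tested miRNAs, and the median absolute difference was 0.0654, beside 0.232 over all tested. The tested miRNAs were not matched to the members for brightness, so the smaller value is not read as greater stability. With 2 arrays a group the lowest limit of the members' 95% intervals was a fold of 0.658 (miR-291b-3p) and the highest 1.29 (miR-292-3p). Single intervals were narrower, such as 0.900 to 1.16 for miR-293. Changes within a member's own interval could not be told from no change. Levels below are signals divided by the 75th percentile of the array, a relative brightness averaged over the probes of a miRNA. Brightness depends on the probe, so levels of different members were not ranked.

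miR-294, one of the 3 with the AAGUGCU seed and able to restore cell cycle progression in miRNA-deficient mouse embryonic stem cells, had levels of 32.3 and 32.0 with siLin28a, against 35.0 and 32.3 with siGFP. The groups overlapped, and the log2 difference was -0.06 (SE 0.08, limma adjusted p = 0.625), a fold of 0.958 with a 95% interval from 0.819 to 1.12. miR-295, from the last hairpin of the cluster, had levels of 52.1 and 47.5 with siLin28a, against 52.5 and 51.6 with siGFP. Its first siLin28a replicate lay between the siGFP arrays and its second lay below both. The log2 difference was -0.07 (SE 0.09, limma adjusted p = 0.653), with an interval from -0.32 to 0.19.

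miR-291a-3p, which shares its first 11 bases with miR-294, had levels of 41.8 and 36.3 with siLin28a, against 42.1 and 41.9 with siGFP. Both siLin28a arrays were below both siGFP arrays, the first by a margin smaller than the gap between the siGFP arrays. The log2 difference was -0.11 (SE 0.10, limma adjusted p = 0.505), with an interval from -0.40 to 0.19. All 3 members with this seed were thus nominally lower, by 0.06 to 0.11 on the log2 scale, and none passed the test.

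miR-290-3p, with the seed AAGUGCC, from the first hairpin, had levels of 0.631 and 0.557 with siLin28a, against 0.670 and 0.651 with siGFP. Both siLin28a arrays lay below both siGFP arrays. The log2 difference was -0.16 (SE 0.10, limma adjusted p = 0.370), with an interval from -0.45 to 0.14.

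miR-291b-3p, whose seed AAGUGCA differs from that of miR-294 at its last base, had levels of 0.114 and 0.0948 with siLin28a, against 0.117 and 0.131 with siGFP. The second siLin28a value is the floor of 0.0948 to which dimmer signals were raised, so its difference is understated there. Both siLin28a arrays were below both siGFP arrays, and the log2 difference of -0.25 was the largest of the members in size (SE 0.12, limma adjusted p = 0.278), with an interval from -0.60 to 0.11. Only 1 of its 4 probes was bright enough to be kept.

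miR-293, whose 5′ end starts further into the shared core so that its seed is GUGCCGC, had levels of 21.7 and 20.8 with siLin28a, against 20.9 and 20.8 with siGFP. The groups overlapped and the log2 difference was 0.03 (SE 0.06, limma adjusted p = 0.772), with an interval from -0.15 to 0.21. miR-292-3p, cut from the third hairpin, had levels of 26.7 and 31.3 with siLin28a, against 28.1 and 27.5 with siGFP. Its siLin28a arrays fell on either side of the siGFP arrays, and the log2 difference was 0.06 (SE 0.11, limma adjusted p = 0.751), with an interval from -0.25 to 0.37.

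**Figure D1:**
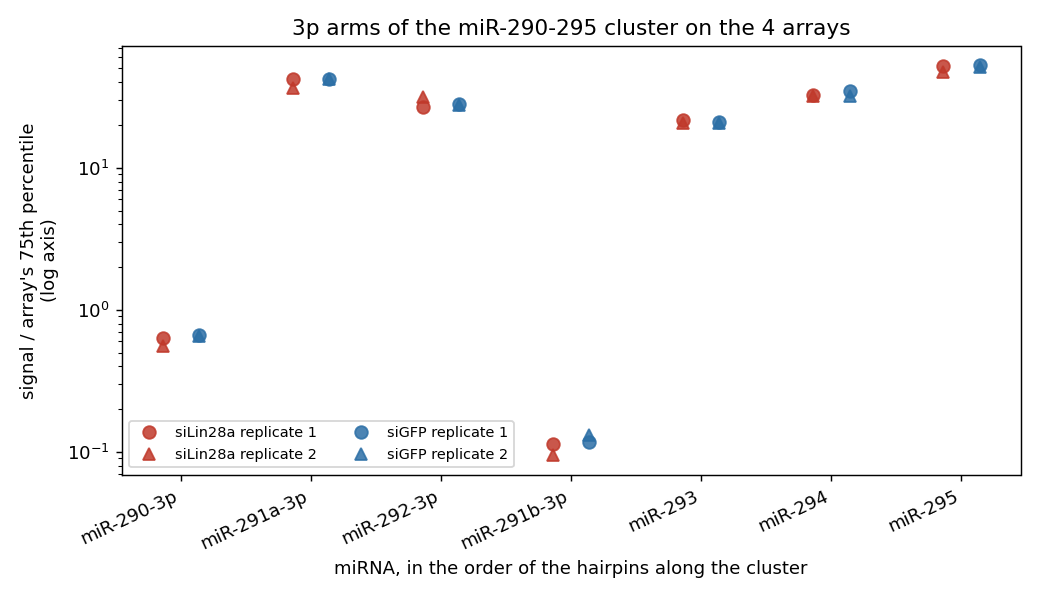
Level of each 3p arm on each of the 4 arrays, as signal over the 75th percentile of the array on a log axis, with siLin28a (red) left of siGFP (blue), circles for replicate 1 and triangles for replicate 2. The arrays of both groups lie close together for every member, and the siLin28a replicate 2 triangle lies below the replicate 1 circle for 6 of 7 members.

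In all, 5 of 7 members were nominally lower and 2 higher with siLin28a, while 49.4% of all tested miRNAs were lower and 49.4% higher. The groups did not overlap for 3 members, all lower (miR-290-3p, miR-291a-3p and miR-291b-3p). For the whole array the groups did not overlap for 61.5% of tested miRNAs, 30.7% lower and 30.7% higher, so counted over both directions the members separated no more often than the background. Replicates spread further apart with siLin28a than with siGFP for 6 of 7 members, miR-294 being the exception. The second siLin28a array was below the first for 6 of 7, all but miR-292-3p. Neither pattern was counted over all tested miRNAs, so neither is read as a trait of the members. The median difference was -0.05 without siLin28a replicate 2 and -0.13 without siLin28a replicate 1, with 0 members called in either case.

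**Figure D2:**
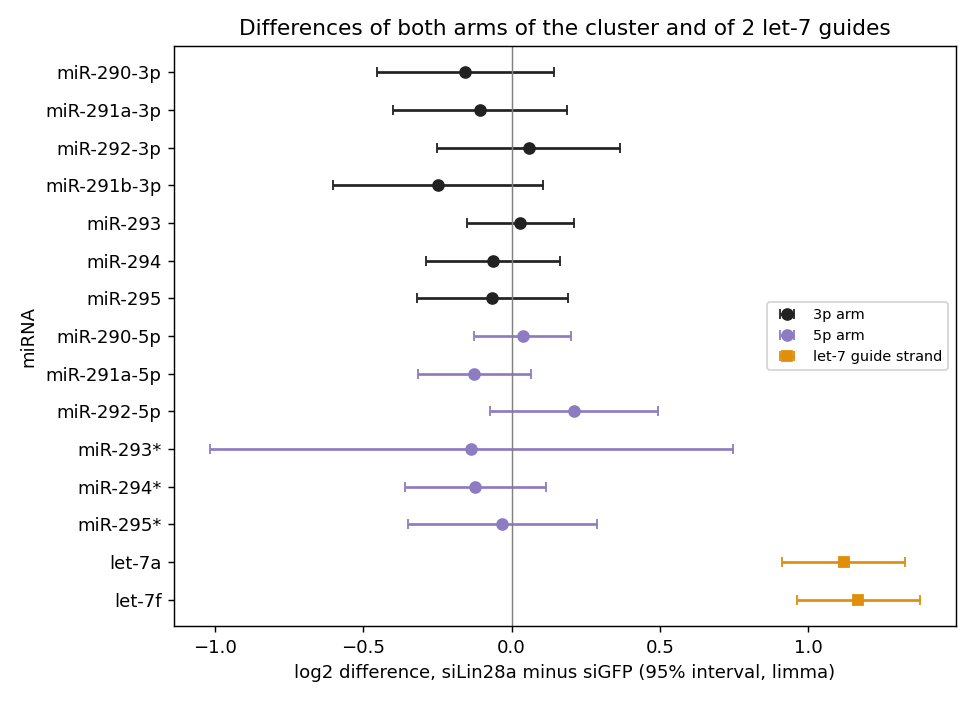
Fitted log2 difference, siLin28a minus siGFP, with its 95% limma interval, for the 3p arms (black), the 5p arms (purple) and let-7a and let-7f (orange). Every interval of the 7 members holds 0, while let-7a at 1.12 and let-7f at 1.17 stand apart with siGFP values set to the floor. Those siGFP values have no spread, so the let-7 intervals do not measure one.

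These directions are relative to the bulk of the array. In the unscaled total gene signal that Feature Extraction gives, miR-294 had 11517 and 12361 with siLin28a, against 11039 and 10398 with siGFP, and miR-295 had 18516 and 18314 with siLin28a, against 16590 and 16629 with siGFP. On that scale 6 of 7 members were higher with siLin28a without overlap, all but miR-291b-3p, beside 50.6% of all tested miRNAs, and 0 members were lower without overlap, beside 6.93% of all tested miRNAs. The ratio of group means had a median of 1.11 over the members and 1.16 over all tested miRNAs. Without scaling, the members' median log2 difference was 0.14 where that of all tested miRNAs was 0.19, and 6 of the 7 were higher with siLin28a. The members' median was below that of the array both with the scaling used and without it. The scaling shifts all miRNAs of an array alike, except signals at the floor, so the value without it is not a second check. The members' median was above that of the array with quantile normalization (-0.04 for the members, -0.07 for all tested miRNAs) and with the normexp background correction (0.11 for the members, -0.19 for all tested miRNAs).

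**Figure D3:**
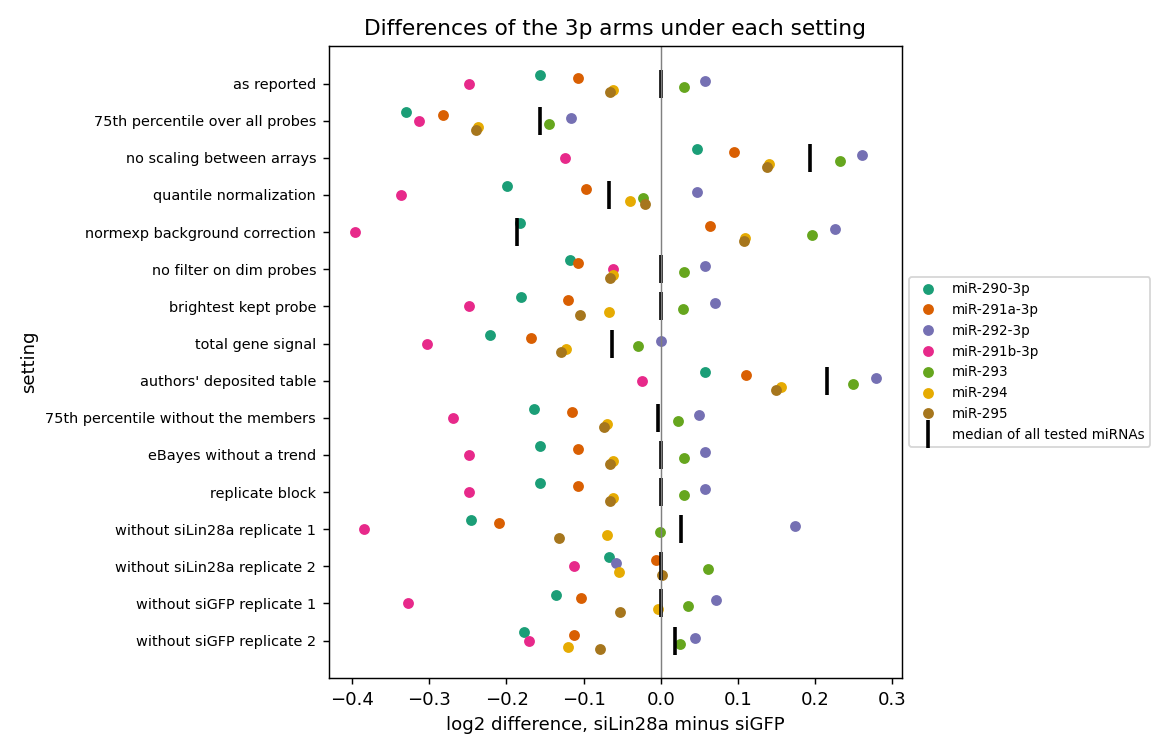
Log2 difference, siLin28a minus siGFP, of each 3p arm (coloured points) under each processing setting, with the median of all tested miRNAs as a black bar. The points shift as a group with the scaling, from a median of -0.24 with the 75th percentile over all probes to 0.15 in the authors' deposited table, and the array median shifts from -0.16 to 0.22 between the same settings.

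Each member was read by 2 to 4 probes whose target spans differ in length, 20 in all, of which 16 were bright enough to be kept. For 7 of 7 members the signal increased with the span on every array. For miR-290-3p the probe spanning 15 bases gave signals of 21.2 and 17.4 with siLin28a, against 16.9 and 17.7 with siGFP, and the probe spanning 18 bases gave 248 and 228 with siLin28a, against 243 and 225 with siGFP. For miR-291b-3p only the probe spanning 21 bases was kept, with 28.4 and 22.6 with siLin28a, against 26.5 and 28.7 with siGFP. The kept probes of a member pointed the same way: those of miR-292-3p and miR-293 were all nominally higher with siLin28a (4 probes) and those of the other members all lower (12). Scaled differences ran from -0.25 to 0.07 over the kept probes. Probes of 1 miRNA share their target and are not replicates. The coefficient of variation between spots of a kept probe on an array had a median of 6.84% and ran from 1.39% to 16.9%. Members as alike as miR-291a-3p and miR-294 may bind each other's probes, which was not tested.

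**Figure D4:**
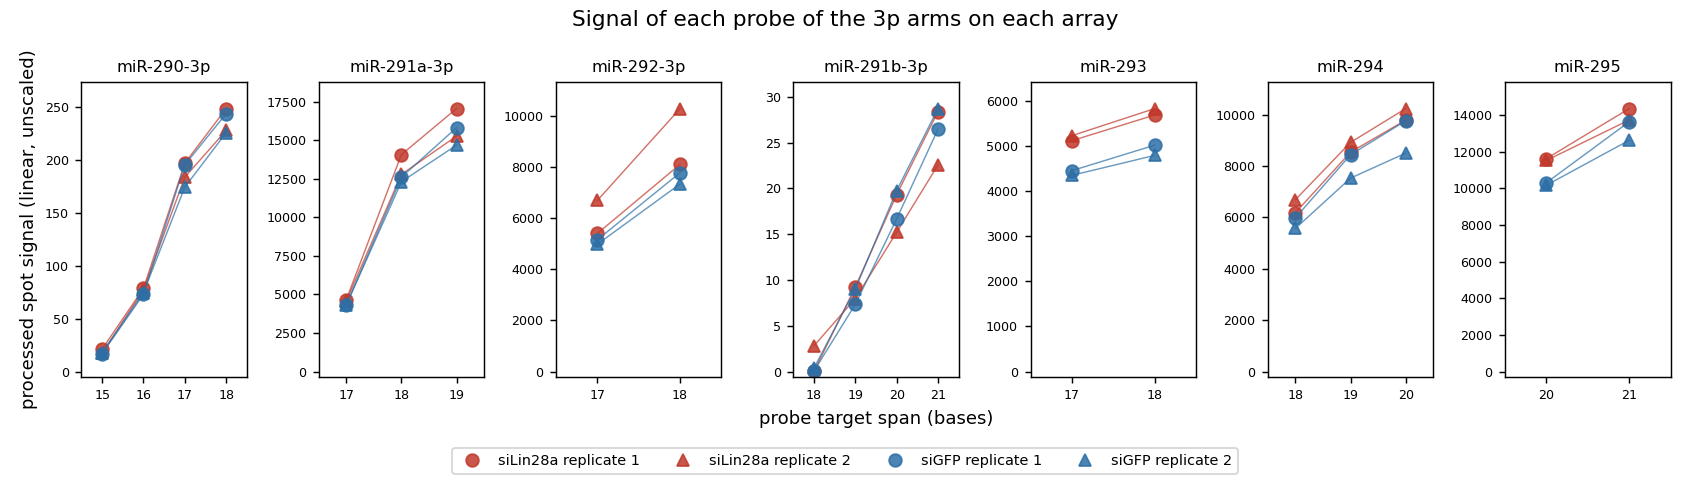
Unscaled processed signal (linear axis, 1 per member) of each probe against the length of its target span in bases, on the siLin28a (red) and siGFP (blue) arrays. Signals increase with span for every member, and the separate lines of siLin28a replicate 2 for miR-292-3p (above) and miR-291b-3p (below) show the array that departs most from its partner.

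The 5p arms of the same hairpins come from the same precursors. Of 7 on the array, 6 were tested (not miR-291b-5p), 0 were called and 0 had an unadjusted p below 0.05. Their differences had a median of -0.08, with 4 lower (2 without overlap) and 2 higher (1 without overlap), where 61.5% of all tested miRNAs did not overlap. miR-290-5p had levels of 2.77 and 2.63 with siLin28a, against 2.62 and 2.64 with siGFP (log2 difference 0.04, SE 0.06). miR-291a-5p had 0.937 and 0.907 with siLin28a, against 1.01 and 1.00 with siGFP (log2 difference -0.13, SE 0.07). miR-292-5p had 0.862 and 0.870 with siLin28a, against 0.701 and 0.799 with siGFP (log2 difference 0.21, SE 0.10). These 5p arms were thus apart without overlap in opposite directions for miR-291a-5p and miR-292-5p, and none passed the test.

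The log2 contrast of the 3p over the 5p arm was taken within each array, where a linear scaling cancels except for signals at the floor. For the miR-290 hairpin it was -2.13 and -2.24 with siLin28a, against -1.97 and -2.02 with siGFP, a change of -0.19 without overlap. The change was -0.05 with the brightest kept probe of each arm and -0.08 with the total gene signal. The exact permutation p was 0.333, the smallest that 2 arrays against 2 allow. The groups overlapped for the other 5 hairpins. Their changes were 0.02 for miR-291a (exact p = 1), -0.15 for miR-292 (exact p = 0.667), 0.17 for miR-293 (exact p = 0.667), 0.06 for miR-294 (exact p = 0.667) and -0.03 for miR-295 (exact p = 1). Over the 6 hairpins 3 were lower and 3 higher, with a median of -0.01.

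The members held a large share of the signal in both groups. They made up 39.5% and 37.0% of the summed total gene signal of mouse miRNAs with siLin28a, against 39.9% and 37.4% with siGFP. The means were 38.3% ± 1.76 with siLin28a and 38.7% ± 1.81 with siGFP (SD, n = 2 each), a difference of -0.417 percentage points with overlapping groups (exact permutation p = 0.667, smallest possible 0.333). This is a share of brightness and not of molecules. Without miR-720, the brightest name on the array, the share was 46.7% and 43.7% with siLin28a, against 47.3% and 45.1% with siGFP. Within the members' own sum, 5 of them (miR-291a-3p, miR-292-3p, miR-293, miR-294 and miR-295) held 99.65% or more on every array. miR-295 averaged 28.2% of that sum with siLin28a and 28.7% with siGFP, miR-291a-3p 24.5% with siLin28a and 25.6% with siGFP, and miR-292-3p 16.7% with siLin28a and 15.5% with siGFP.

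The miR-302 cluster and the miR-17 seed family were set beside the members. Of the 5 members of the miR-302 cluster, 0 were tested and 4 were detected on no array, miR-302b and miR-302d among them. The summed total signal of the 5 was 42.9 and 20.0 with siLin28a, against 27.6 and 10.5 with siGFP. Of this, miR-367 held 19.9 and 9.58 with siLin28a, against 14.8 and 6.87 with siGFP. The seed of miR-367 was not compared here, so the sum is not that of a shared seed. The miR-17 seed family, growth-promoting miRNAs whose seed holds the letters AAGUGC displaced by a base, had 6 of 6 tested. Of these 0 were called, 3 had an unadjusted p below 0.05, 4 were lower without overlap and 2 higher without overlap, with a median of -0.26. Of all tested miRNAs 24.7% had such a p, and 30.7% were lower and 30.7% higher without overlap. miR-20a had levels of 3.89 and 3.42 with siLin28a, against 4.27 and 4.37 with siGFP (log2 difference -0.25, SE 0.09). miR-20b had 3.15 and 2.89 with siLin28a, against 3.53 and 3.73 with siGFP (log2 difference -0.27, SE 0.07). miR-106b had 2.61 and 2.37 with siLin28a, against 2.11 and 2.19 with siGFP (log2 difference 0.21, SE 0.08).

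Across the 4 arrays the miRNAs outside the cluster whose centred log2 values lay nearest to the members' mean profile were miR-103 (Euclidean distance 0.0482), miR-342-3p (0.0797), miR-15a (0.0874) and miR-345-5p (0.0986). The viral mghv-miR-M1-2 followed at 0.102, with all its values at the floor and so no profile of its own. The median distance of all tested miRNAs outside the cluster was 0.344. With 4 points that share slide and scaling, these distances are a description only.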

How the data were processed

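Per the file headers, the 4 arrays (design 019119) were read with Agilent Feature Extraction 9.5.1.1, while the submitters' processing notes name 9.5.3.1. The deposited scanner files hold linear intensity values, background-subtracted by Feature Extraction. The authors' deposited table holds the total gene signal of each miRNA as intensity, with no scaling between arrays: 100% of its values above 10 lay within 5% of the scanner files, and its column medians were 6.3 and 9.1 for siLin28a and 4.7 and 4.7 for siGFP. Probe targets refer to build mm9, per the file headers.

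Spots marked as outliers (3.21% to 4.32% of 11540 that were not controls) were left out, and the processed signals of each of 1712 probes were averaged. A probe counted as above background where 50% or more of its spots carried that flag. Arrays were divided by the 75th percentile over the 425 probes above background on all 4 arrays (248 and 265 for siLin28a, 226 and 220 for siGFP), floored at 0.0948 and taken to log2. Probes above background on every array of siLin28a or of siGFP were kept (477 probes of 231 miRNAs) and averaged per miRNA. limma 3.58.1 in R 4.3.3 (lmFit, eBayes with a trend, 1.64 prior and 2 residual degrees of freedom) compared the groups at 0.05 after Benjamini-Hochberg adjustment across the 231 miRNAs. Single contrasts and shares used exact permutation tests.

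The titles of the samples give their group and replicate number. All members are named, with up to 3 tested miRNAs of highest mean level per further list and the 5 nearest profiles. Members and lists were chosen with earlier results of these data known. The alternatives changed the scaling, background correction, filter, probe summary, signal and fit, or left out an array. The share without miR-720 and a scaling without the members' probes were chosen after seeing the data.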

Additional observations from a re-analysis of the deposited data

How the results depend on the processing

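With 2 arrays a group, 0 of the 7 members were called under any alternative, but directions changed with the scaling, the background correction, the signal used and the arrays included. With no scaling between arrays, members that were lower as reported had positive log2 differences: 0.046 for miR-290-3p, 0.095 for miR-291a-3p, 0.14 for miR-294 and 0.14 for miR-295. In the authors' deposited table these were 0.057, 0.11, 0.16 and 0.15, and with normexp they were 0.064 for miR-291a-3p, 0.11 for miR-294 and 0.11 for miR-295. With the 75th percentile over all probes miR-292-3p was at -0.12 and miR-293 at -0.14, and miR-293 was at -0.024 with quantile normalization and -0.030 with the total gene signal. Each such setting rescales or re-corrects all miRNAs of an array, and the cause of the difference between them was not tested. miR-291b-3p was lower in every setting run. Leaving out each array in turn gave -0.25 to -0.07 for miR-290-3p, -0.21 to -0.01 for miR-291a-3p, -0.058 to 0.17 for miR-292-3p, -0.39 to -0.11 for miR-291b-3p, -0.0010 to 0.061 for miR-293, -0.12 to -0.0038 for miR-294 and -0.13 to 0.0011 for miR-295. It left an arm with 1 array, which is assumed to vary like the other group. Called miRNAs numbered 2 higher and 0 lower as reported. The higher count was 0 with the 75th percentile over all probes, 5 with normexp (2 lower), 40 with no filter on dim probes (8 lower), 8 with the total gene signal and 16 in the authors' deposited table, and 0 to 10 (0 to 1 lower) with an array left out. The change of the 3p over 5p contrast was -0.014 for miR-291a with no filter, 0.15 for miR-292 with normexp, and 0.087 with quantile normalization and 0.26 with normexp for miR-295. With an array left out these changes ran from -0.25 to -0.14 for miR-290, -0.060 to 0.10 for miR-291a, -0.26 to -0.04 for miR-292, -0.15 to 0.48 for miR-293, 0.0094 to 0.11 for miR-294 and -0.15 to 0.084 for miR-295. The difference in share ran from -1.69 to 0.859 points with an array left out. The samples share replicate numbers, and same-numbered samples deviated together (correlation 0.706 over 231 miRNAs), but the labels do not say what a number marks. With the replicate block 2 miRNAs were called higher and 0 lower, as without it, and it changed no member's call. Each replicate number holds both groups, so the block could change only the error of a difference and not its size. The share was lower with siLin28a in both same-numbered pairs. The reading of miR-291b-3p is limited by signal over background, with 1 of 4 probes kept.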
